A study of Mus musculus with 16 samples.

Results

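Complement is a cascade of plasma and tissue proteins that tag surfaces for removal and call in immune cells. The 8 genes described here are 5 components (C1qa, C1qb and C1qc, the chains of C1q, then C4b and C3), 2 receptors for cleaved fragments (C3ar1 and C5ar1) and 1 inhibitor (Serping1). They were picked by symbol, with earlier results of these data known, and are 8 of the 26466 genes in the table of all libraries. All 8 passed the filter on low values.

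In the classical pathway, C1q binds a target and its attached proteases cleave C4 and then C2. The products cleave C3, and C3 fragments both coat the target and signal through receptors on myeloid cells. C1 inhibitor, the product of Serping1, blocks the C1 proteases. In the mouse brain the C1q chains are made mainly by microglia and macrophages, whereas C4b and C3 can also come from glia, and C1q and C3 are known for tagging synapses for removal by microglia.

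The study measured RNA of transplanted mouse glioblastoma tumours of 2 kinds, Type 1 and Type 2, with or without depletion of tumour-associated macrophages (TAMs). There were 3 Type 1 TAM depleted, 5 Type 1 Control, 4 Type 2 TAM depleted and 4 Type 2 Control libraries, 16 in all. The sources used here do not state the alleles behind each tumour kind, the host strain, sex and age, the depletion agent and its timing, or any agent given to controls. The series' design text counts each library as a tumour, and the labels do not say whether each tumour came from its own animal, so p-values measure only the spread between these libraries.

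Libraries held 4.21 to 18.3 M reads, with a mean of 15.3 M in Type 1 TAM depleted and 6.32 M in Type 1 Control libraries. Reads on 974 olfactory and vomeronasal receptor genes, which brain tumours are not known to use, split the libraries into 9 with 2666 to 8480 such reads per M and 7 with at most 778.9, called here high- and low-background libraries. All 3 Type 1 TAM depleted libraries were low and all 5 Type 1 Control libraries were high, so depletion, depth and background cannot be told apart in Type 1. In Type 2, TAM depleted 3 and 4 and Control 1 and 3 were high, and the other 4 were low. The gene model Gm10800 alone took 13.8% to 58.2% of the reads in high-background libraries and at most 2.03% in low-background ones. Its share was largest in Type 2 Control 1, which had 4.21 M reads. The macrophage label was checked on 10 marker genes, whose summed normalized count was 1215 to 2937 in Type 2 TAM depleted and 2909 to 8357 in Type 2 Control libraries, overlapping in 1 library of each group. The same sum was 1296 to 2620 in Type 1 TAM depleted and 1434 to 2681 in Type 1 Control libraries, so those groups overlapped. No macrophage marker was under 10 in every library of any group.

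Promoter windows from RefSeq (GRCm38.p6), 250 bases before to 50 after the annotated start, were matched for 5 of the 8 genes: C1qb, C1qc, C3, C3ar1 and C5ar1. C5ar1 is left out and the others are shown because C1qb and C1qc varied together across libraries, while C3 and C3ar1 are the ligand source and its receptor. Capitals mark every match to the motifs searched on either strand.

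C1qb, chr4:136886151-136886450, minus strand: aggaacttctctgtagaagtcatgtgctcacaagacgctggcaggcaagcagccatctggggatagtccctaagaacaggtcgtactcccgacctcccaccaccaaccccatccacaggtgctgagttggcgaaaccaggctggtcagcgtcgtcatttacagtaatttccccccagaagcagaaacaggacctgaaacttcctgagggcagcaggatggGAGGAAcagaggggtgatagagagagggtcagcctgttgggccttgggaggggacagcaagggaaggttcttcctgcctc
C1qc, chr4:136892865-136893164, minus strand: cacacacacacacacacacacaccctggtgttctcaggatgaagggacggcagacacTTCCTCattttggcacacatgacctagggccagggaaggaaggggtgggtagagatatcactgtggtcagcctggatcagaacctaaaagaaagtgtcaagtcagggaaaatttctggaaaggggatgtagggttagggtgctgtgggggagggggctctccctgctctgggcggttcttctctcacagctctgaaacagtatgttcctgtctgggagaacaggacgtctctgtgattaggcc
C3, chr17:57228087-57228386, minus strand: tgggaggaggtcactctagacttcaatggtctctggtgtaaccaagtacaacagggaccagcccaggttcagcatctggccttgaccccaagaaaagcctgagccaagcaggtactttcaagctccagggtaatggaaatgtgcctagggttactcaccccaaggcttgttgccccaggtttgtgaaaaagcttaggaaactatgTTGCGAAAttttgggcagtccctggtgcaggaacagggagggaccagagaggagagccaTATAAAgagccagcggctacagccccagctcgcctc
C3ar1, chr6:122856108-122856407, minus strand: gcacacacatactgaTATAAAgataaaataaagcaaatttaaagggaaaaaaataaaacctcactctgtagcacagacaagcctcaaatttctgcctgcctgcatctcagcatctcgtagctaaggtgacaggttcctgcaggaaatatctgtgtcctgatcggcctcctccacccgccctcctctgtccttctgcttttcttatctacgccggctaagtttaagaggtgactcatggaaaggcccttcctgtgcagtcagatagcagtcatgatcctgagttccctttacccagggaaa

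The core bound by PU.1, the lineage factor of macrophages, was searched as GAGGAA and is in 28.3% of 32851 promoter windows. It matched C1qb 30 bases before the RefSeq start and C1qc, on the opposite strand, 193 bases before the RefSeq start. In GENCODE, C1qc begins at chr4:136893065 on the minus strand, inside this window, so that distance depends on the annotation. A C/EBP site, TTGCNNAA, is in 10.8% of windows and matched C3 45 bases before the start. The TATA box, TATAAA, is in 13.6% of windows and matched C3ar1 235 bases before the start and C3 14 bases after it. The interferon-stimulated response element, searched in a form of 10 letters (3.44% of windows), and an NF-kB site of 10 letters (1.47%) matched 0 of the 5 windows. A further 2 motifs were added after those matches had been seen: a STAT site, TTCNNNGAA (8.3% of windows), matched 0 of 5, and a shorter form of the interferon element, GAAANNGAA (8.56%), which every longer match also holds, matched C5ar1 alone. A match is a description of letters, not a binding site.

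Values below are normalized counts recovered from the deposited log2 values, in replicate order. Fold changes are differences of group means of log2(normalized count + 1), from limma-trend fitted to 26463 genes with Benjamini-Hochberg adjustment and a threshold of 0.05. A called gene is one past that threshold. In bulk tumour RNA, fewer cells of a type and less RNA per cell cannot be told apart.

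**Figure D1:**
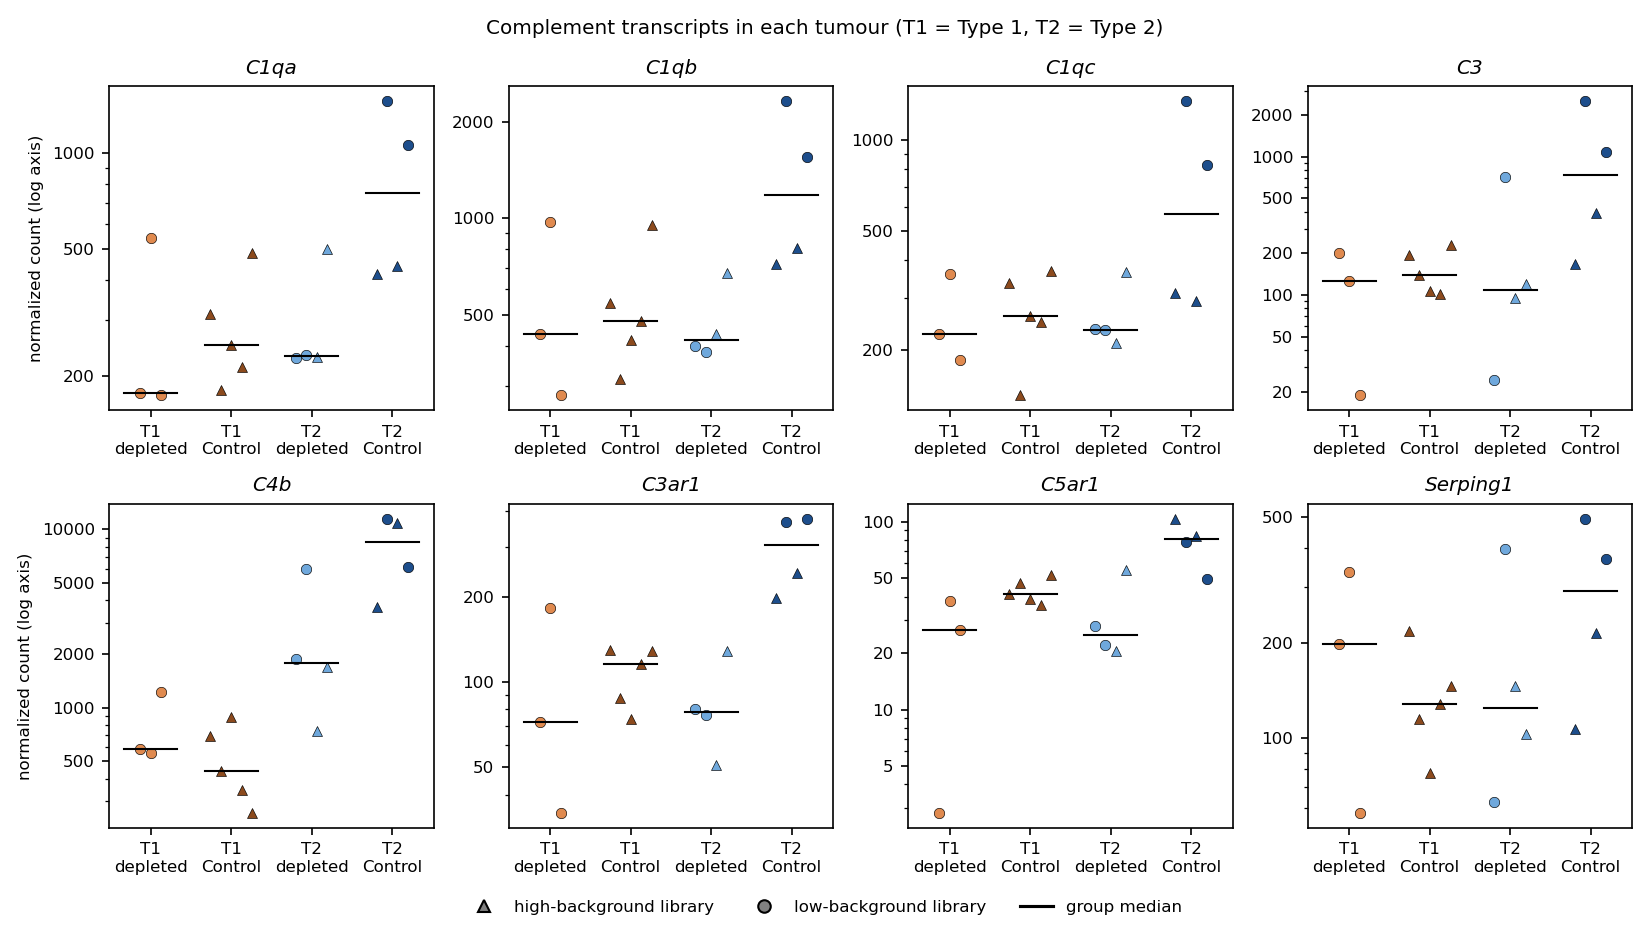
Normalized count (log axis) of each of the 8 complement genes in every library, by group; points are libraries (triangles high-background, circles low-background) and bars are group medians. Type 2 Control libraries held the highest value of every gene, such as 11491 for C4b, and both C1qb and C3ar1 were lower in all 4 Type 2 TAM depleted than in all 4 Type 2 Control libraries.

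In Type 2 tumours all 8 genes were lower on average after TAM depletion, and C3ar1 alone was called. Across all genes, 1.24% were called lower and 2.37% called higher in this comparison, and 59.4% had a fold change below 0. The 8 genes had a median log2 fold change of -1.39, against -0.21 for all genes. At an unadjusted p under 0.05, 7 of the 8 were lower, beside 8.16% of all genes. Libraries of the 2 groups did not overlap for C1qb and C3ar1, 2 of 8, where 3.39% of all genes were lower without overlap.

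C1q is the recognition protein of the classical pathway, built from 3 chains encoded side by side on chromosome 4 (GRCm38, GENCODE). C1qa lies at chr4:136895917-136898803, C1qc at chr4:136889804-136893065 and C1qb at chr4:136880129-136886187, all on the minus strand. C1qb had 398, 381, 434 and 674 normalized counts in Type 2 TAM depleted libraries, against 718, 2334, 809 and 1560 in Type 2 Control libraries. Every depleted library was below every control library, and Control 2 and 4, both low-background, were the highest. The log2 fold change was -1.39 (SE 0.44, limma-trend adjusted p = 0.0919), which was not called.

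C1qa had 227, 233, 230 and 500 normalized counts in Type 2 TAM depleted libraries, against 418, 1463, 443 and 1059 in Type 2 Control libraries. TAM depleted 4 stood above the other 3 depleted libraries and above Control 1 and 3, so the groups overlapped. C1qc had 235, 234, 211 and 365 in Type 2 TAM depleted libraries, against 311, 1353.9, 291 and 830 in Type 2 Control libraries. It too overlapped only through TAM depleted 4. Their log2 fold changes were -1.39 (SE 0.47, limma-trend adjusted p = 0.117) for C1qa and -1.14 (SE 0.45, adjusted p = 0.173) for C1qc.

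The size of the C1q difference went with the background set. Among low-background Type 2 libraries the log2 fold changes, TAM depleted against Control, were -2.43 for C1qa, -2.29 for C1qb and -2.17 for C1qc. Among high-background Type 2 libraries they were -0.34, -0.50 and -0.11 for the same genes. With 2 libraries a group in each set, none of these within-set differences was called.

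The 3 chains kept nearly the same proportion in all groups. Per kilobase of annotated exon, C1qb made up 54.5% ± 4.48 of the C1q total in Type 1 TAM depleted, 54.0% ± 3.05 in Type 1 Control, 51.2% ± 2.80 in Type 2 TAM depleted and 52.6% ± 3.07 in Type 2 Control libraries (SD, n = 3, 5, 4 and 4). C1qc was the smallest share in every library, from 11.4% to 18.5%. Relative to Csf1r, the receptor for the growth factor that macrophages need, log2 C1qb was higher by 0.75 ± 0.44 in Type 2 TAM depleted and by 1.04 ± 0.34 in Type 2 Control libraries (SD, n = 4 each).

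C4b, the mouse gene for complement C4 that the C1 proteases cleave, lies at chr17:34728380-34743882 on the minus strand. It had 1885, 6006, 743 and 1696 normalized counts in Type 2 TAM depleted libraries, against 3685, 11491, 10835 and 6128 in Type 2 Control libraries. TAM depleted 2 reached into the control range and the other 3 were below it. The log2 fold change was -1.91 (SE 0.56, limma-trend adjusted p = 0.0702), not called. Leaving out 1 library at a time gave -2.45 to -1.44, with an adjusted p of 0.038 without TAM depleted 2 and of 0.0567 to 0.199 without each of the other 7. Among high-background libraries, 2 in each group, it was -2.49 (limma-trend adjusted p = 0.00716). Among low-background ones, also 2 in each group, it was -1.32 and not called. C4b was called in 6 of 21 alternative settings in this comparison, with adjusted p from 0.00716 to 0.507, so the high-background value is the lowest of them.

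C3, the component on which all complement pathways converge, lies at chr17:57203970-57228136 on the minus strand and holds the microRNA gene Mir6978. It had 24.5, 707, 94.9 and 121 normalized counts in Type 2 TAM depleted libraries, against 168, 2533, 393 and 1078 in Type 2 Control libraries. The spread within each group was wide, and TAM depleted 2 was above Control 1 and 3. The log2 fold change of -2.44 was the furthest from 0 of the 8, but its SE of 0.93 was too, and it was not called (limma-trend adjusted p = 0.163). Leaving out 1 library at a time gave -3.29 (without TAM depleted 2) to -1.69 (without TAM depleted 1), and none of these was called (adjusted p = 0.0775 to 0.416).

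C3ar1 encodes the receptor for C3a, the small fragment released from C3, and lies at chr6:122847138-122856161 on the minus strand. It had 80.2, 76.5, 50.7 and 129 normalized counts in Type 2 TAM depleted libraries, against 197, 366, 243 and 377 in Type 2 Control libraries. Every depleted library was below every control library. The mean was 84.2 ± 32.9 in TAM depleted and 296 ± 89.7 in Control libraries (SD, n = 4 each). C3ar1 thus fell on the log2 scale by 1.83, with an SE of 0.43 and a limma-trend adjusted p of 0.0303. The call was lost without TAM depleted 1 (adjusted p = 0.0687), 2 (0.0783) or 3 (0.0616) and without Control 3 (0.0763) or 4 (0.0613). It was also lost within high-background libraries (log2 fold change -1.42, adjusted p = 0.52) and within low-background libraries (-2.23, adjusted p = 0.393), where the direction was the same.

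C5ar1 encodes the receptor for C5a, a strong attractant of myeloid cells, and lies at chr7:16246743-16259540 on the minus strand. It had 27.9, 22.1, 20.5 and 55.7 normalized counts in Type 2 TAM depleted libraries, against 104, 78.5, 83.7 and 49.3 in Type 2 Control libraries. The groups overlapped through TAM depleted 4 and Control 4. The highest value, 104 in Control 1, rests on 29 reads. The log2 fold change was -1.36 (SE 0.57, limma-trend adjusted p = 0.208).

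Serping1 lies at chr2:84765387-84775444 on the minus strand. It had 62.6, 397, 146 and 103 normalized counts in Type 2 TAM depleted libraries, against 107, 495, 215 and 368 in Type 2 Control libraries. It was the only one of the 8 with an unadjusted p above 0.05, and its log2 fold change was -0.87 (SE 0.61, limma-trend adjusted p = 0.479).

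Markers of other cells moved in the same comparison. Of 10 macrophage markers, 9 were lower and 4 were called lower (Adgre1, Ptprc, Fcer1g and Cd14), with a median log2 fold change of -1.55. Csf1r averaged 291 ± 122 normalized counts in Type 2 TAM depleted and 697 ± 431 in Type 2 Control libraries (SD, n = 4 each), and its log2 fold change was -1.10 (limma-trend adjusted p = 0.194). Aif1, a calcium-binding protein of macrophages and microglia, did not overlap between the groups and had -1.42 (adjusted p = 0.0548). All 8 microglia markers were lower, 0 called, with a median of -0.40. All 6 neuron markers were higher and 5 were called, with a summed normalized count of 6678 to 56337 in Type 2 TAM depleted and 755 to 5513 in Type 2 Control libraries. Astrocyte markers summed to 10678 to 57908 in Type 2 TAM depleted and 3178 to 12499 in Type 2 Control libraries. All 6 oligodendrocyte markers were higher, 0 called, with a median log2 fold change of 1.32 and sums of 10254 to 33949 in Type 2 TAM depleted and 3034 to 15493 in Type 2 Control libraries. All 6 monocyte markers were lower, 0 called, with a median of -1.91 and sums of 27.3 to 446 in Type 2 TAM depleted and 369 to 904 in Type 2 Control libraries. All 4 T and NK cell markers in the table were lower, 0 called, with a median of -1.89 and sums of 3.41 to 107 in Type 2 TAM depleted and 74.2 to 157 in Type 2 Control libraries. The part of these markers in the complement differences was not tested.

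**Figure D2:**
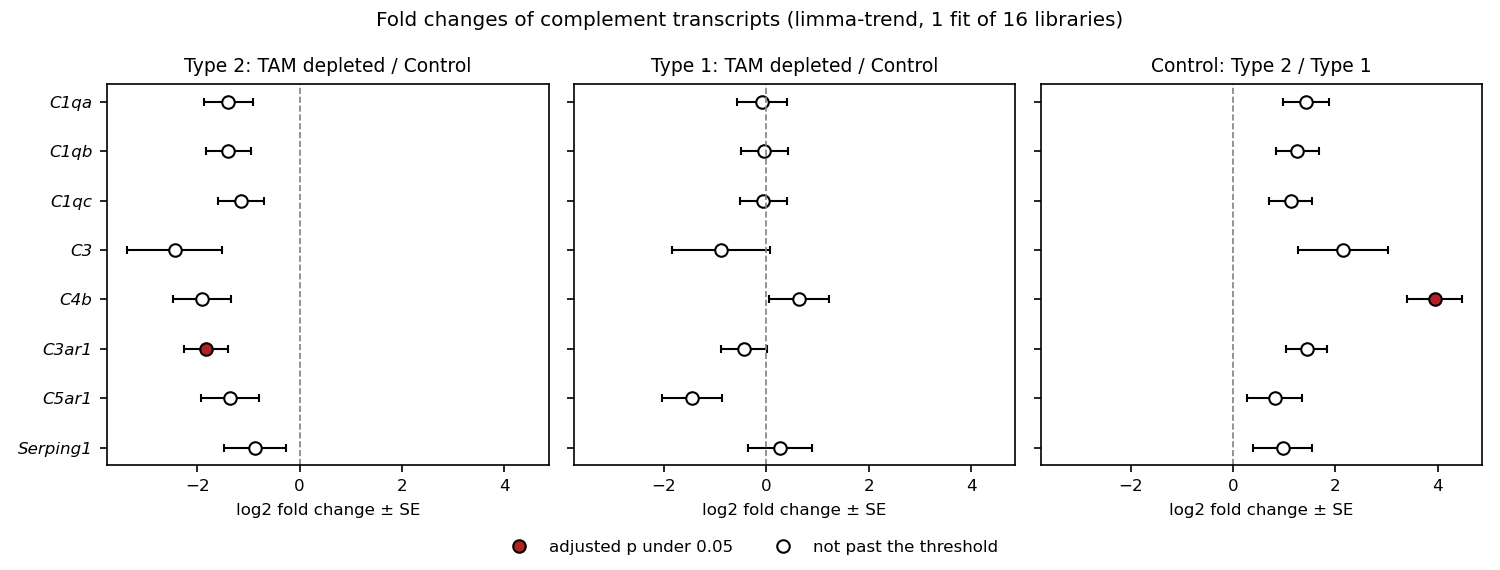
Log2 fold change of each of the 8 genes (points) with its standard error (bars) in 3 comparisons, filled where the adjusted p was under 0.05. In Type 2, TAM depleted against Control, all 8 lie below 0, from -2.44 for C3 to -0.87 for Serping1; in Type 2 Control against Type 1 Control all lie above 0, up to 3.94 for C4b.

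In Type 1 tumours no complement gene was called after TAM depletion, and 0% of all genes were called in either direction by limma-trend. The 0% depends on the fit, in which all 16 libraries share 1 estimate of the spread. Fits of the Type 1 libraries alone called many genes, as given in the last section, but 0 of the 8. At an unadjusted p under 0.05, limma-trend gave 8019 genes and limma-voom, which called 0 as well, gave 7556. Of the 8 genes 6 were lower, beside 51.5% of all genes, with a median log2 fold change of -0.07. Libraries of the 2 groups overlapped for all 8, although 28.6% of all genes were lower and 10.5% higher without overlap.

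C1qa had 177, 541 and 174 normalized counts in Type 1 TAM depleted libraries, against 312, 181, 251, 214 and 485 in Type 1 Control libraries. TAM depleted 2 was the highest of all 8 and the other 2 were the lowest. C1qb had 434, 977 and 280 in Type 1 TAM depleted libraries, against 544, 314, 417, 478 and 955 in Type 1 Control libraries. C1qc had 227, 358 and 186 in Type 1 TAM depleted libraries, against 336, 142, 260, 249 and 368 in Type 1 Control libraries. The log2 fold changes of these chains were -0.09, -0.04 and -0.06, with limma-trend adjusted p of 0.903, 0.956 and 0.932.

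C4b had 583, 559 and 1227 normalized counts in Type 1 TAM depleted libraries, against 691, 439, 889, 345 and 256 in Type 1 Control libraries. Its log2 fold change was 0.64 (limma-trend adjusted p = 0.439). C3 had 200, 126 and 18.9 in Type 1 TAM depleted libraries, against 195, 139, 107, 101 and 231 in Type 1 Control libraries. TAM depleted 3 was the lowest for C3, C3ar1 and Serping1 and the highest for C4b. The C3 log2 fold change was -0.89 (adjusted p = 0.507).

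C3ar1 had 71.9, 183 and 34.4 normalized counts in Type 1 TAM depleted libraries, against 130, 87.6, 73.7, 116 and 128 in Type 1 Control libraries. C5ar1 had 2.81, 38.1 and 26.4 in Type 1 TAM depleted libraries, against 41.3, 47.4, 38.7, 36.2 and 52.3 in Type 1 Control libraries. The lowest of these, in TAM depleted 1, rests on 5 reads. C5ar1 was the only one of the 8 with an unadjusted p under 0.05 in this comparison (0.0241), where 24.5% of all genes were lower at that level, and its log2 fold change of -1.46 (SE 0.59) was not called (limma-trend adjusted p = 0.121). It was -0.42 (adjusted p = 0.545) without TAM depleted 1, -2.10 (adjusted p = 0.185) without TAM depleted 2 and -0.60 (adjusted p = 0.669) with quantile normalization. Serping1 had 199, 336 and 57.9 in Type 1 TAM depleted libraries, against 219, 115, 77.5, 128 and 146 in Type 1 Control libraries. Its log2 fold change was 0.28 (adjusted p = 0.759), and that of C3ar1 was -0.44 (adjusted p = 0.484).

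The difference between the depletion responses, Type 2 minus Type 1, was tested as an interaction. It was called for 0% of all genes by limma-trend, with 2666 at an unadjusted p under 0.05, and for 0 genes by limma-voom, with 3171. The estimate was below 0 for 7 of the 8 genes, beside 44% of all genes. It was lower at an unadjusted p under 0.05 for 3 of them, beside 4.87% of all genes. C4b had the estimate furthest from 0, -2.54 (SE 0.81, unadjusted p = 0.00614, limma-trend adjusted p = 0.462). C3ar1 had -1.39 (adjusted p = 0.491) and C1qb had -1.36 (adjusted p = 0.495). C5ar1 had 0.10 (adjusted p = 0.966). The Type 1 part of each estimate also holds the background and depth differences, which cannot be told apart from depletion there. A response to depletion that differs between the tumour kinds was therefore not shown for any of the 8 genes.

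C4b set the control tumours of the 2 kinds apart. It averaged 8035 ± 3757 normalized counts in Type 2 Control (SD, n = 4) and 524 ± 261 in Type 1 Control libraries (SD, n = 5). The lowest Type 2 Control library, at 3685, was above the highest Type 1 Control library, at 889. The log2 fold change was 3.94 (SE 0.54, limma-trend adjusted p = 0.000525). It was called in 20 of 20 alternative settings, between 3.44 and 4.27, and was 3.73 (adjusted p = 0.00142) in high-background libraries alone, a setting chosen after seeing the data.

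All 8 genes were higher in Type 2 Control than in Type 1 Control tumours on average, beside 37.8% of all genes above 0, with a median log2 fold change of 1.34 against -0.23 for all genes. C4b alone was called, where 2.28% of all genes were called higher and 0.816% lower. At an unadjusted p under 0.05, 6 of 8 were higher, beside 8.47% of all genes, and C4b and C3ar1 did not overlap, beside 5.03%. C3ar1 averaged 296 ± 89.7 normalized counts in Type 2 Control (SD, n = 4) and 107 ± 25.2 in Type 1 Control libraries (SD, n = 5). The difference on the log2 scale was 1.44, with an SE of 0.41 and a limma-trend adjusted p of 0.0694. The fold changes of C1qa, C1qb and C1qc were 1.43, 1.26 and 1.13 in this comparison, and 0.66, 0.60 and 0.22 with high-background libraries alone. C3 had 2.14 (SE 0.88, adjusted p = 0.262), C5ar1 0.82 and Serping1 0.97. With high-background libraries alone C3 had 0.80 and Serping1 0.23, while the C5ar1 difference was no smaller.

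Cell markers also differed between the control tumours. All 10 macrophage markers were higher in Type 2 Control, 0 of them called, and their median log2 fold change was 1.24. All 6 neuron markers were lower and 2 were called, Rbfox3 (-3.10, adjusted p = 0.002) and Snap25 (-3.00, adjusted p = 0.0274), with a median of -2.78 and sums of 755 to 5513 in Type 2 Control and 3890 to 18706 in Type 1 Control libraries. All 6 fibroblast and mural markers were higher, 0 called, with a median of 1.01. Of 5 glioma markers 4 were higher, with a median of 1.58, and Pdgfra alone was called (2.49, adjusted p = 0.019). Of 6 oligodendrocyte markers 4 were higher, and Cnp alone was called (2.11, limma-trend adjusted p = 0.0291). Oligodendrocyte markers summed to 3034 to 15493 in Type 2 Control and 989 to 6465 in Type 1 Control libraries. Of 8 astrocyte markers 6 were lower, and S100b alone was called, higher (2.71, limma-trend adjusted p = 0.00268). Astrocyte markers summed to 3178 to 12499 in Type 2 Control and 3414 to 15979 in Type 1 Control libraries. The part of these cell markers in the C4b difference was not tested. Mouse C4b has a near-identical paralog, C4a, and reads may be split between them. The C4b count was 43.0 to 826 times that of C4a in Type 2 Control and 3.09 to 9.0 times in Type 1 Control libraries.

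Per kilobase of annotated exon the order of mean levels differed between the tumour kinds. In Type 2 Control tumours C4b had 1411 ± 660 and C1qb 1246 ± 692 normalized counts per kilobase (SD, n = 4), closer than their spread, followed by C1qa at 813, C1qc at 361, C3 at 203, Serping1 at 127, C3ar1 at 68.7 and C5ar1 at 30.7. In Type 1 Control tumours C1qb led at 498 ± 226 (SD, n = 5), followed by C1qa at 278, C1qc at 140, C4b at 92.0, Serping1 at 59.0, C3 at 30.1, C3ar1 at 24.9 and C5ar1 at 16.8. The receptors were thus the lowest of the 8 in both control groups.

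**Figure D3:**
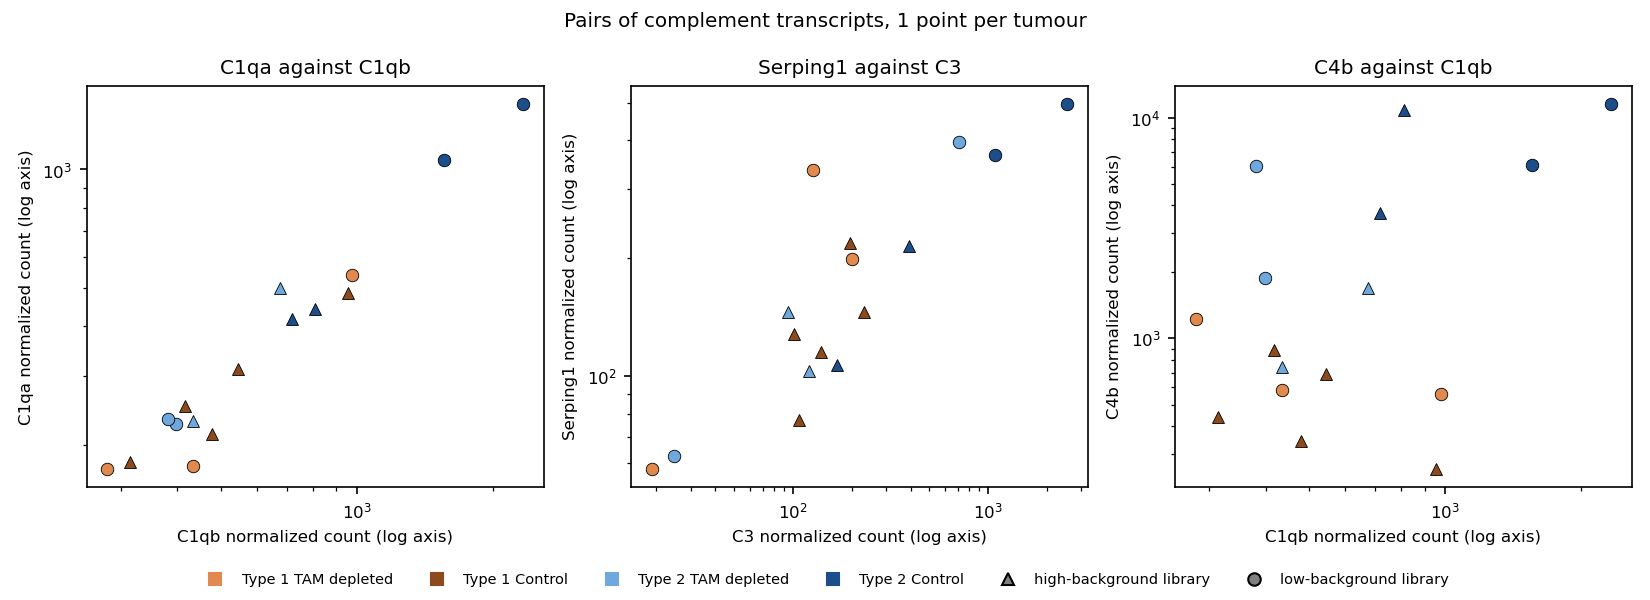
Normalized counts of 3 pairs of complement genes (C1qa against C1qb, Serping1 against C3, C4b against C1qb), both axes log, 1 point per library, coloured by group, with triangles for high-background and circles for low-background libraries. C1qa and C1qb lie close to a line (r = 0.98 over 16 libraries), whereas C1qb and C4b are scattered (r = 0.46).

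Across the 16 libraries, log2(normalized count + 1) of the C1q chains varied together, with Pearson's r of 0.98 for C1qa with C1qb, 0.95 for C1qa with C1qc and 0.94 for C1qb with C1qc. Among 12879 named genes with a mean of 50 or more, the 3 most like each chain were the other chains and Lyn (r = 0.94), a myeloid kinase, for C1qa, and the other chains and Mpeg1 (0.95), a macrophage pore-forming protein, for C1qb and for C1qc. C3ar1 was most like Apobec1 (r = 0.93), Tlr1 (0.92) and Mpeg1 (0.92). These libraries share groups, background sets and depth differences, so the values are descriptions and carry no p.

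C3 was most like Zbp1 (r = 0.96), a nucleic acid sensor, Gbp4 (0.93), a guanylate-binding protein, and Cyba (0.93), an oxidase subunit. Serping1 was most like Gbp5, Atf3 and Cxcl9 (0.92 each), a guanylate-binding protein, a stress-response factor and a chemokine. C3 and Serping1 had an r of 0.87 with each other. The likeness was closer in the 7 low-background libraries, at 0.98 for C3 with Zbp1 and 0.97 for Serping1 with Gbp5, than in the 9 high-background libraries, at 0.72 and 0.60. C4b was most like Akap13, Vwa5a and Xylt1 (0.95 each), and C5ar1 like Car5b and Shroom3 (0.85 each) and Grk4 (0.83). C5ar1 and Serping1 had an r of 0.04.

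**Figure D4:**
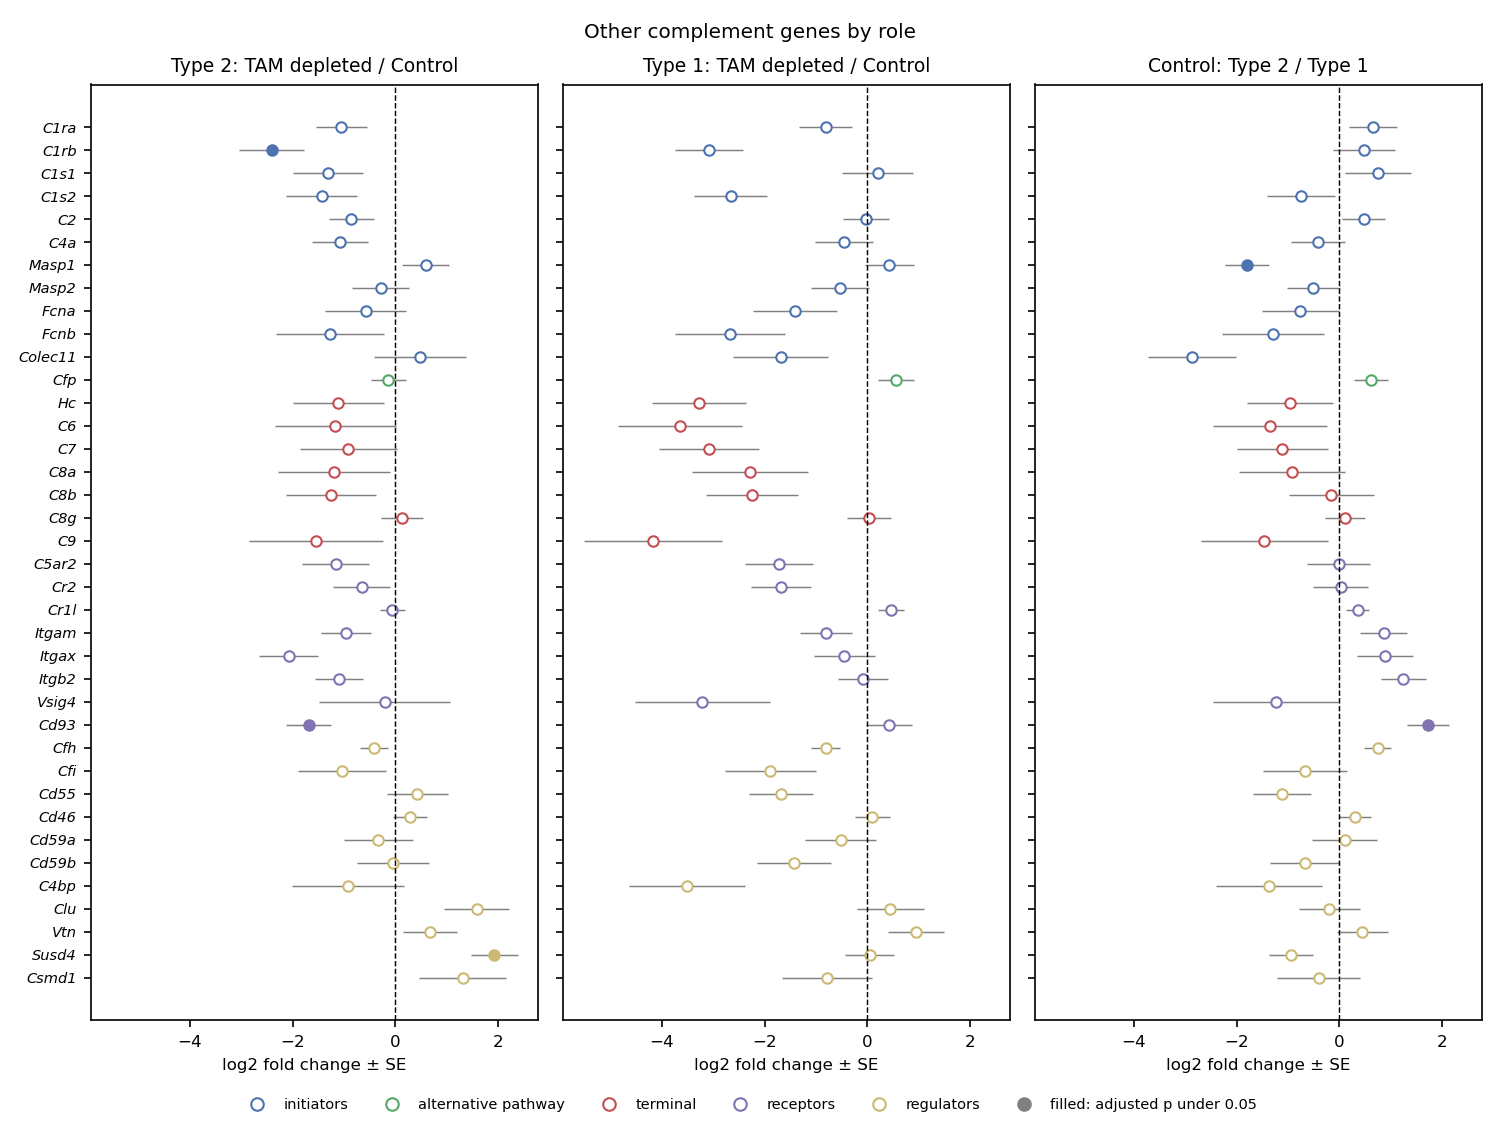
Log2 fold change (points) with its standard error (bars) of 38 other complement genes in 3 comparisons, coloured by role and filled where the adjusted p was under 0.05. In Type 2, TAM depleted against Control, 29 lie below 0 and 9 above, beside 59.4% of all genes below 0. The called genes are C1rb, Cd93 and Susd4.

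Of 42 other complement genes listed, 38 were in the table. In Type 2, TAM depleted against Control, 29 were lower and 9 higher, and their median log2 fold change was -0.89. Beside them, 59.4% of all genes were below 0, with a median of -0.21, and 1.24% were called lower and 2.37% higher. C1rb, a protease of the C1 complex, averaged 8.18 ± 4.16 normalized counts in TAM depleted and 44.4 ± 10.5 in Control libraries (SD, n = 4 each), with a log2 fold change of -2.41 (limma-trend adjusted p = 0.0472). Cd93, once described as a C1q receptor, averaged 292 ± 84.6 in TAM depleted and 1129 ± 823 in Control libraries (SD, n = 4 each), with a log2 fold change of -1.69 (adjusted p = 0.0427). Susd4, an inhibitor of the C3 convertases that brain tissue expresses, was called higher, at 634 ± 429 in TAM depleted and 166 ± 89.8 in Control libraries (SD, n = 4 each; log2 fold change 1.93, adjusted p = 0.0312). C1rb has a close paralog, C1ra, so its counts are uncertain.

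In Type 1, TAM depleted against Control, 28 of the 38 were lower and 0 were called by limma-trend, with 15 lower and 0 higher at an unadjusted p under 0.05. Of all genes, 51.5% had a fold change below 0 in this comparison and 24.5% were lower at that p. The smallest p-values were those of C1rb, C1s2 and Hc, with log2 fold changes of -3.08, -2.66 and -3.28 (adjusted p = 0.103 each). Hc, the mouse gene for C5, averaged 17.0 ± 12.2 normalized counts in Type 1 TAM depleted (SD, n = 3) and 137 ± 35.5 in Type 1 Control libraries (SD, n = 5). These groups are also the low- and high-background libraries, which cannot be told apart from depletion. In Type 2 Control against Type 1 Control, 22 were lower and 16 higher, and their median log2 fold change was -0.30. Across all genes 37.8% were above 0, with a median of -0.23, and 0.816% were called lower and 2.28% higher. Masp1, a protease of the lectin pathway, was called lower (-1.80, limma-trend adjusted p = 0.0301) and Cd93 higher (1.73, adjusted p = 0.028). Colec11, a lectin that starts the pathway, had -2.87 (adjusted p = 0.0854), with low counts of 0 to 22.3 in Type 2 Control libraries. All 5 Type 1 Control libraries were high-background, whereas Type 2 Control had 2 high and 2 low. The part of background in these differences was not tested.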

How the data were processed

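Per the labels' protocols, RNA of the 16 samples came from TRIzol lysates by miRNeasy Micro columns, and SMART-Seq v4 made the libraries. STAR 2.7.8a, GRCm38 and DESeq2 are named in the submitters' processing notes. The authors deposited log2 values with a common floor, as a variance-stabilizing transformation gives. They were inverted to normalized counts and, since every library had a smallest step of which 100% of its values were multiples (tolerance 0.05 reads), to reads. The analysis plan assumed normalized counts. The test stayed limma-trend (limma 3.58.1, R 4.3.3) on log2(normalized count + 1), 2-sided, in 1 fit of 4 group means with 12 residual degrees of freedom, for genes with 10 or more normalized counts in at least 3 libraries. The fit was tested on simulated data. SMART-Seq v4 does not mark strand, so antisense reads cannot be separated.

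The members and gene lists were chosen with earlier results of these data known. Named genes are the 8 members, other complement genes past the threshold or with the 3 smallest p-values in a comparison, Csf1r and Aif1, and, by Pearson's r, the 3 genes most like each member. Promoter motifs were searched on both strands. Of the 7 motifs, 2 were added after matches to the first 5 had been seen. Alternatives changed the pseudocount, filter, scaling, tool, replicate block, background term, libraries and table. Other complement genes without a row in the table were not analysed here.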

Additional observations from a re-analysis of the deposited data

Results flagged for a closer look

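C1qa in Type 2 TAM depleted replicate 4 had a log2(normalized count + 1) of 8.97, far from the other 3 libraries of its group. It was the only such value in 24 combinations of a gene with a group of 4 or 5 libraries. The rule's nominal level flags about 1 in 20 combinations where no outlier exists, and these combinations share libraries and are not independent.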

How the results depend on the processing

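Of 680 recomputed fold changes of the 8 genes, 627 kept their direction and side of the threshold, 9 lost a call, 16 gained one and 28 changed sign. In Type 2, TAM depleted against Control, the number of the 8 genes called was 2 with a filter of 50 and 4 with quantile normalization. It was 3 with upper quartile scaling or the background term. It was 0 with the 2 groups alone, the Type 2 table alone or low-background libraries, and 0 to 1 with a replicate left out. The calls over all genes moved too, from 956 in the main fit to 1378 with a filter of 50, where fewer genes were tested. They were 1300 with upper quartile scaling, 1213 with quantile normalization and 100 to 1258 with a replicate left out. In Type 2 Control against Type 1 Control the number of the 8 genes called was 2 with a filter of 50, limma-voom or the 2 groups alone. It was 3 with quantile normalization and 1 to 2 with a replicate left out. Over all genes the calls there were 819 in the main fit, 1053 with a filter of 50 and 510 to 1141 with a replicate left out. The cause was not tested.

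Sign changes fell in Type 1 depletion and in the difference. In Type 1, C1qa, C1qb and C1qc had log2 fold changes of 0.26, 0.31 and 0.20 with the replicate block and 0.24, 0.29 and 0.27 in the Type 1 table alone. With the background term C4b had -0.36 and Serping1 -0.65, and with upper quartile scaling Serping1 had -0.17. The background term is estimated from Type 2 libraries alone, because background and depletion coincide in Type 1. With it, depletion and background still cannot be told apart in Type 1. With a replicate left out, the ranges were -0.63 to 0.19 for C1qa, -0.53 to 0.37 for C1qb, -0.33 to 0.15 for C1qc, -1.56 to 0.11 for C3, -1.06 to 0.14 for C3ar1 and -0.27 to 0.99 for Serping1. In the difference, C5ar1 had -0.19 with a pseudocount of 8, -0.55 with quantile normalization, -0.41 with the background term and -0.94 to 0.74 with a replicate left out.

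Over all genes, 956 were called in Type 2 depletion (329 lower, 627 higher), against 1300 with upper quartile scaling (677 lower, 623 higher), 297 with the replicate block and 2635 with the background term. Type 2 Control against Type 1 Control gave 819 (216 lower, 603 higher), against 2343 with limma-voom (1441 lower, 902 higher), 1804 with quantile normalization (725 lower, 1079 higher) and 347 with the block. Type 1 depletion gave 0, but 9389 with its 2 groups alone and 16381 in its own table, and 0 of the 8 genes in both. The difference gave 0, and 166 with the background term, whose estimate rests on Type 2 libraries alone. With a replicate left out, Type 2 depletion gave 100 to 1258. Deviations from the group mean, over genes, of same-numbered depleted and control libraries correlated between -0.67 and 0.50. In Type 2 the positive values (0.50 and 0.30) joined libraries of the same background set and the negative ones (-0.67 and -0.60) joined different sets. The values therefore cannot show whether the numbers pair libraries. The replicate block left the number of the 8 genes called at 1, 0, 0 and 1. Upper quartile scaling moved the median log2 fold change of all genes to -0.47 in Type 2 depletion and -0.50 in Type 1 depletion, and quantile normalization to -0.06 and 0.06. All 8 genes stayed lower in Type 2 depletion under both.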
